A study of Homo sapiens with 6 samples.

Results

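The regions described here are the H3K9me3 peaks that flank the centromeres of chromosomes 1, 2, 9, 10 and 16 in PC-3 cells, an established human prostate adenocarcinoma line that came from a bone metastasis. A peak belonged to them when its midpoint lay within 2 Mb of the centromere gap, or of the heterochromatin gap joined to it, in the hg19 assembly. The windows ran, in Mb, from 119.54 to 144.54 on chromosome 1, from 90.33 to 97.33 on chromosome 2, from 45.37 to 67.37 on chromosome 9, from 37.25 to 44.25 on chromosome 10 and from 33.34 to 48.34 on chromosome 16. They spanned 76 Mb, of which 20 Mb lay outside these gaps. Of the 2826 peaks in the 3 lists, 280 were members, namely 173 of 1334 in the untreated control, 28 of 1220 after 6 h of TGF-β1 and 79 of 272 after 24 h.

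All cells had been without serum for 24 h. The treated ones then received TGF-β1, a secreted signalling protein, at 5 ng/mL for 6 h or 24 h, and the control received none. Each condition had 1 ChIP library, made with an antibody to histone H3 trimethylated at lysine 9, and 1 input library. Each peak list came from 1 ChIP library, so the conditions were compared by description and without a test, and intervals cover counting error only. Sequencing depth is unknown from the lists, and the peak names of both treated lists carry a word for filtered alignments that the control names lack. Whether all lists were made in the same way is therefore unknown.

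H3K9me3 is written by SUV39H enzymes at pericentromeres and read by HP1 proteins, which compact the chromatin. Human pericentromeres are built of tandem satellite repeats, and chromosomes 1, 9 and 16 carry long blocks of them beside the centromere on the long arm. In hg19 most of that DNA stands as gaps, so only the flanks and short islands of it can receive mapped reads. In the windows of chromosomes 1, 9 and 16 the gap holds such a block, while on chromosomes 2 and 10 it is the centromere gap alone. Whether the peaks lie in satellite DNA was not analysed here.

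The windows held a share of each list that was smallest at 6 h and largest at 24 h. They held 12.97% of the control list (95% exact interval 11.2 to 14.9), 2.30% of the 6 h list (1.53 to 3.30) and 29.0% of the 24 h list (23.7 to 34.8). A −log10 q of at least 5, where q is the caller's adjusted p, marked the stronger peaks, and among these the shares were 24.0%, 15.7% and 43.3%. They made up 76.3% of the control members, 60.7% of the 6 h members and 89.9% of the 24 h members, whereas in the whole lists they made up 41.3%, 8.85% and 60.3%. Near gaps on the other chromosomes they made up 76.8%, 32.5% and 85.5%, so that the high share in the control and at 24 h was common to both groups of peaks near gaps. With each list cut to as many peaks of highest −log10 q as the 24 h list has, the control share was 29.8%, no longer below that of 24 h, and the 6 h share was 6.62%. Without the chromosome 16 window the 24 h share was 15.1% and that of the control 9.67%. The peaks of that window still counted in the list totals, so these shares could only fall. Peaks within 2 Mb of gaps on the other chromosomes made up 25.6%, 3.28% and 27.9% of the lists in the same order. The members covered 65.3 kb of control sequence, 10.4 kb after 6 h and 22.3 kb after 24 h.

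The 5 windows differed in how many peaks each list had. Chromosome 2 held the most control peaks, with 55, and had 4 at 6 h and 12 at 24 h. Chromosome 16 held 44 control peaks, 11 after 6 h and 38 after 24 h, which was 25.4% of the control members and 48.1% of the 24 h members. Chromosome 10 held 34, 10 and 19, and chromosome 1 held 34, 2 and 9. Chromosome 9, whose gap also takes in a heterochromatin block, held only 6, 1 and 1. Of all 24 h peaks on chromosome 16, 86.4% lay in its window, as did 80.0% of those on chromosome 2 and 14.3% of those on chromosome 9. The control had the most peaks in each window. It was also the longest list, with 1334 peaks in all against 1220 at 6 h and 272 at 24 h. The window counts are not scaled to these totals. At 6 h there were fewer than at 24 h in each window but that of chromosome 9.

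**Figure D1:**
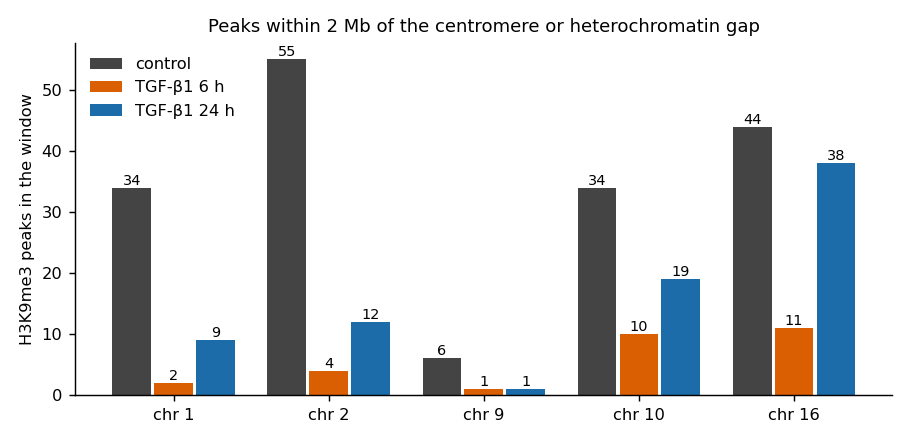
Bars give the number of H3K9me3 peaks (vertical axis) in each chromosome's window in the control, 6 h and 24 h lists, 1 library each, with no error bars. The 24 h count comes closest to the control on chromosome 16 (38 against 44) and is far below it on chromosome 2 (12 against 55). Counts are not scaled to the list totals, which are 272 at 24 h and 1334 in the control.

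On chromosomes 2, 10 and 16 most peaks of each list lay on 1 side of the gap. On chromosome 2 all 55 control and 12 24 h peaks lay on the short arm side, with 1 peak, at 6 h, on the long arm side. On chromosome 10 the long arm side held 28 of 34 control peaks, 9 of 10 at 6 h and 18 of 19 at 24 h. On chromosome 16 it held 29 of 44, 9 of 11 and 32 of 38. Chromosome 1 had 15 control peaks on the short arm side and 19 on the long arm side. Within 100 kb of a gap edge lay 34.7% of the control members (27.6 to 42.3), 42.9% of those at 6 h (24.5 to 62.8) and 57.0% of those at 24 h (45.3 to 68.1). The control peaks within 100 kb had a median −log10 q of 83.4, and those farther out had 9.61. At 24 h the medians were 48.5 and 31.1. The 6 h list had the opposite order, with 17.9 for its 12 peaks within 100 kb and 55.0 for the 16 farther out. Those 16 included the 9 long arm side peaks of chromosome 10, at 52.7 to 593.5, and the rest had 3.19 or less. No chromosome 10 peak of any list lay within 100 kb, so this split does not separate distance from chromosome.

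**Figure D2:**
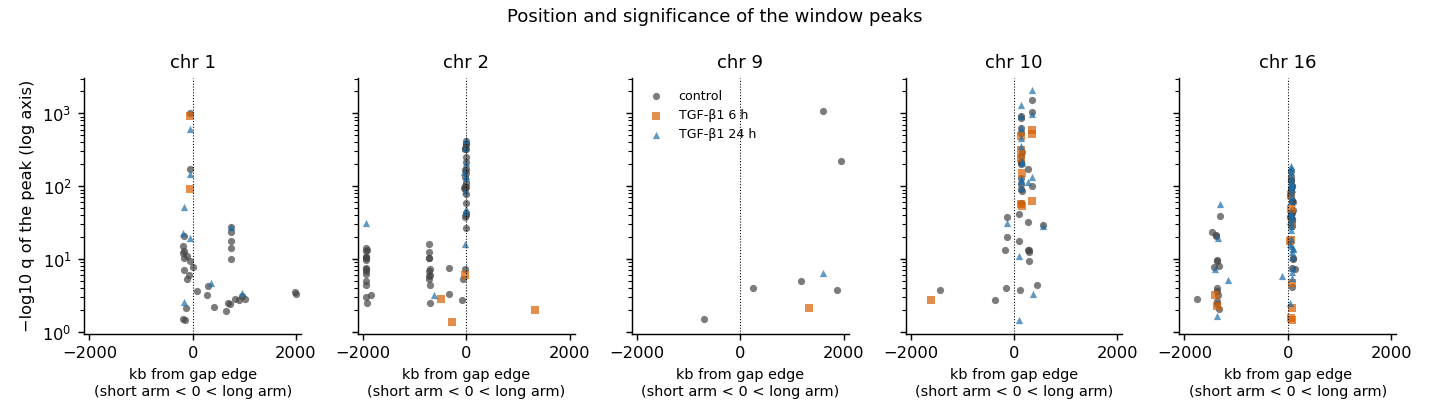
Each point is a peak, with its distance in kb from the edge of the gap on the horizontal axis (short arm side negative, long arm side positive) and its −log10 q on a logarithmic vertical axis, by chromosome and list. The strongest peaks of chromosomes 2, 10 and 16 stand in narrow columns on 1 side of the gap, while chromosome 9 has scattered points.

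Within each list the members had high significance and low fold. Fold is the authors' ratio of summit pileup to local background, and it ranks peaks within a list. The median fold of members was 3.03 in the control (interval of the median 2.80 to 3.19), 1.90 at 6 h (1.69 to 2.15) and 2.34 at 24 h (2.20 to 2.55). Peaks away from all gaps had medians of 4.03, 4.11 and 3.72. The order was reversed for −log10 q. Members had medians of 14.3 (10.4 to 27.4), 24.1 (2.81 to 76.1) and 44.3 (28.1 to 95.6), against 2.82, 2.36 and 3.19 away from gaps. The 28 members at 6 h were split, with 11 under 5 and 12 at 50 or more. Peaks near gaps on the other chromosomes also had a lower fold and a higher −log10 q than those away from gaps, with medians of 3.53 and 13.4 in the control, 3.36 and 2.86 at 6 h, and 2.62 and 28.1 at 24 h. Members were 9 of the 10 control peaks with the highest −log10 q, 5 of such 10 at 6 h and 8 of 10 at 24 h. Of the 10 peaks with the highest fold, 0 were members in each list. Members were only 12.97% of all control peaks and 2.30% of all 6 h peaks, so 0 of 10 says little for these lists. They were 29.0% of all 24 h peaks. Near gaps on the other chromosomes lay 5 of the 10 control peaks with the highest fold, 1 of such 24 h peaks and 0 of such 6 h peaks. Despite its lower median, that group thus held some of the highest control folds.

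**Figure D3:**
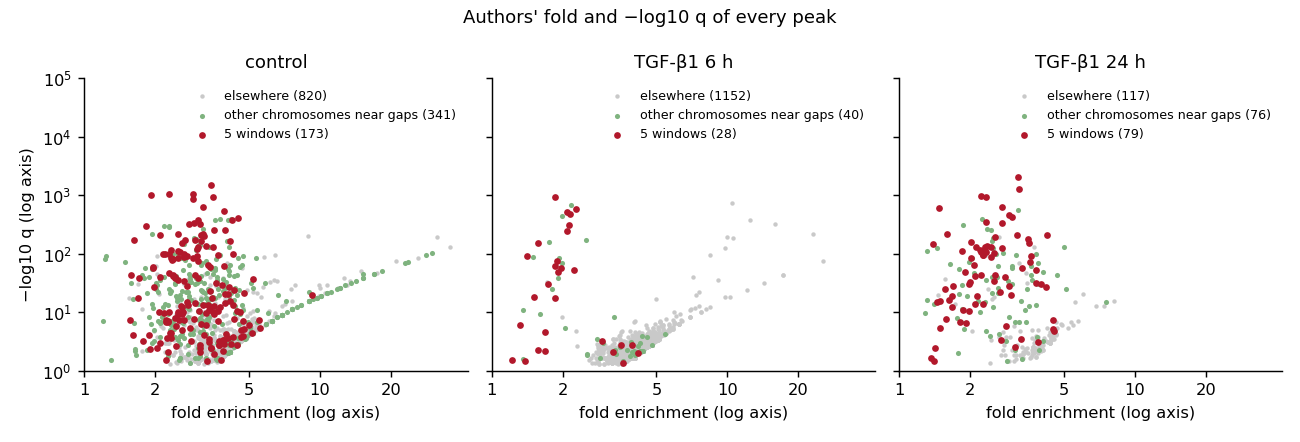
Every peak of each list is plotted by the authors' fold (horizontal) and −log10 q (vertical), both on logarithmic axes, with members of the 5 windows in red, other peaks near gaps in green and the rest in grey. Many members lie at the upper left, at low fold and high −log10 q, in all 3 lists.

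That position corresponds to a raised local background. The background is solved from the same deposited values, so it restates the position and is no separate observation. From the fold and −log10 p of a peak, its summit pileup and local background could be solved, and they are given as multiples of the lowest background in the same list. That lowest level was 1.89 fragments for the control, 1.73 for 6 h and 2.66 for 24 h. The local background exceeded 10 times that lowest level in 65.3% of control members, 78.6% of 6 h members and 88.6% of 24 h members. Away from gaps it did so in 6.71%, 0.955% and 11.1% of peaks. On the other chromosomes near gaps the shares were 49.0%, 32.5% and 75%. A background at the lowest level was found in 2 of the 173 control members and in 0 at 6 h and 24 h. It was found in 17.4%, 12.8% and 11.1% of peaks away from gaps, and near gaps on the other chromosomes in 22.9%, 5.00% and, at 24 h, 0 of 76 peaks. The source of this background in the windows was not tested.

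Neighbouring peaks formed a few dense loci and many single sites. Chained when less than 10 kb apart, the members of all lists formed 66 loci, of which 45 were 1 peak alone and 35 of these were in the control. The 11 loci with at least 6 peaks covered 214.9 kb and held 71.1% of the control members, 78.6% of the 6 h members and 82.3% of the 24 h members. All 11 had a control peak, 6 had a 6 h peak and 10 had a 24 h peak. The locus without any treated peak was on chromosome 2 from 91597283 to 91621474, with 11 control peaks. It, the group on chromosome 2 from 90371711 and the chromosome 16 peaks from 46404927 and 46419417 were chosen after their values were seen.

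The largest locus lay on chromosome 16 from 46385944 to 46435532, 50.3 kb from the heterochromatin gap on the long arm side. It held 28 control peaks, 9 at 6 h and 32 at 24 h, and is the named locus in which the 24 h list had more peaks than the control. The control peaks there were longer, with 19009 bp in all against 9606 bp at 24 h and 3467 bp at 6 h. Some single control peaks were matched by several shorter ones at 24 h. The control peak from 46404927 to 46407088, for example, overlapped 3 peaks at 24 h and 1 at 6 h. The highest −log10 q of the locus in the control and at 24 h was in the peak from 46403463 to 46403864, with 163.1 and 191.6, where the 6 h list had 48.9. At 6 h the highest, 76.1, was in the peak from 46391252 to 46392229. All 9 peaks at 6 h had a partner in the control and at 24 h, and 30 of the 32 at 24 h had one in the control.

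**Figure D4:**
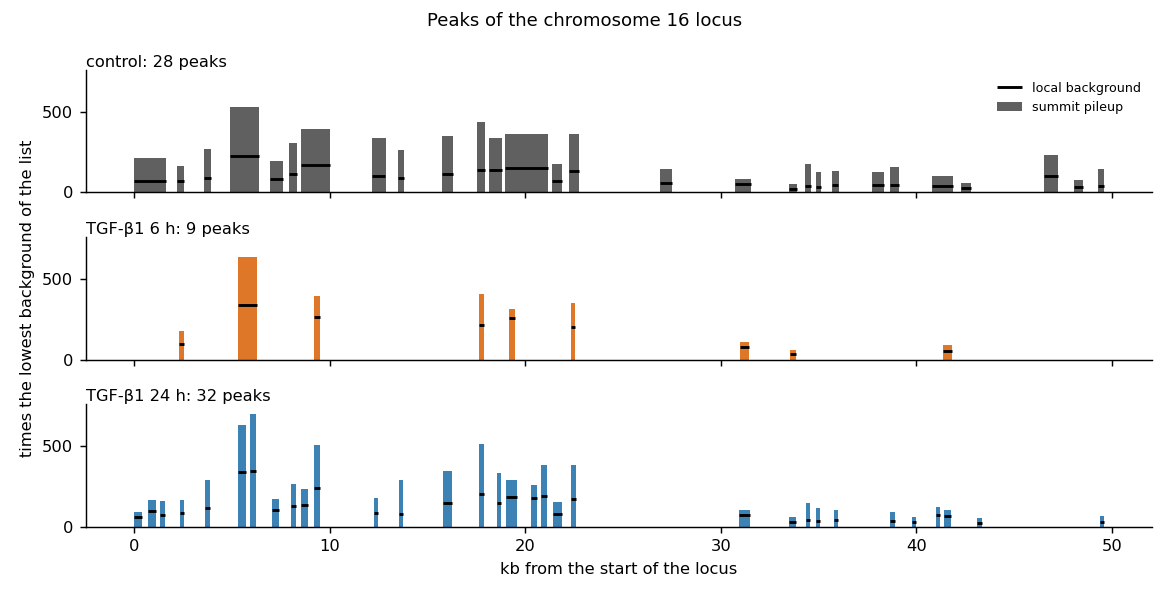
Bars show the peaks of the chromosome 16 locus along its length (kb from its start), with bar height as the summit pileup and the black line as the local background, both in multiples of the list's lowest background. The tallest bars stand at the same places in all lists, and the 9 bars at 6 h coincide with bars in the other lists.

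On chromosome 10 the locus with the most peaks ran from 42384950 to 42402105, 130.4 kb from the centromere gap on the long arm side. It had 14 control peaks, 6 at 6 h and 10 at 24 h, and every treated peak overlapped a control peak. Its peak from 42395918 to 42396230 was chosen after its values were seen. That peak had a −log10 q of 931.1 in the control, 310.4 in the overlapping 6 h peak and 1286.5 at 24 h. A smaller locus farther out, from 42596880 to 42600273, was outside the naming rule and was chosen after its values were seen. It had 3 peaks in each list. The first of them, from 42596880 to 42597176, had the highest −log10 q of the whole control list (1509.5), at folds of 3.45 for the control, 2.29 for 6 h and 3.202 for 24 h. The overlapping 24 h peak, with 2090.9, was likewise the highest of its list. The highest fold of any control member, 9.24, was on the other side of this gap, from 39128780 to 39128961, where neither treated list had a peak.

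On chromosome 2 the main locus, from 92290387 to 92325297, reached to within 1.00 kb of the centromere gap on the short arm side. It had 23 control peaks, 1 at 6 h and 9 at 24 h. Each of the 9 at 24 h had a control partner. The peak next to the gap, from 92325056 to 92325291 at 24 h, had a fold of 3.02 and a −log10 q of 424.4, and the overlapping control peak had a fold of 3.03. The control peak with the highest −log10 q there, from 92313774 to 92314030 (412.0, fold 4.48), had no overlapping peak at 6 h or 24 h, and the nearest 24 h summit was 4293 bp away. The only 6 h peak of the locus, from 92290387 to 92290751, had a fold of 1.32 and was also the single region of the window found in every list. A second group of control peaks on this arm, from 90371711 to 90392520, held 14 control peaks, 0 at 6 h and 1 at 24 h, with control −log10 q values between 3.04 and 14.3.

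On chromosome 1 the named locus, from 121354147 to 121370017 on the short arm side, held 7 control peaks, 0 at 6 h and 3 at 24 h. Nearer to the gap, a peak from 121485078 to 121485373 in the control had an overlapping peak in both treated lists. It had the highest −log10 q of the 6 h list (930.1), against 1026.4 in the control and 608.4 at 24 h. Its summit pileup stood at 7269.7 times the lowest level for the control, 8012 times for 6 h and 7830.2 times for 24 h. Its local background was 3787, 4329.6 and 5291 times, and its folds were 1.92, 1.85 and 1.48. Along the long arm side most control peaks stood alone, and no 6 h peak lay there.

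The chromosome 9 window had no dense locus, and its strongest peak was a single one. In the control it ran from 66971101 to 66971409, with a fold of 2.29, a −log10 q of 1073.8 and a pileup of 4976 times the lowest background. The 24 h list had a peak from 66971320 to 66971530 that overlapped its end, with a fold of 1.93, a −log10 q of 6.46 and a pileup of 47.7 times. The 6 h list had none there. A control peak outside the window, from 69710952 to 69711259, had nearly the same values, with a fold of 2.30, a −log10 q of 1080.2 and a pileup of 4959 times. A further strong control peak of the window, from 67320471 to 67320912 (fold 2.49, −log10 q 220.4), overlapped no treated peak. Both of these were chosen after their values were seen.

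The members of the treated lists mostly lay where the control had a peak. Of the 24 h members, 68 of 79 overlapped a control peak (86.1%, 76.5 to 92.8), against 51.5% in the whole 24 h list and 75% near gaps on the other chromosomes (63.7 to 84.2). Of the 6 h members, 22 of 28 did (78.6%, 59.0 to 91.7), against 5.25% in the whole 6 h list and 32.5% near the other gaps (18.6 to 49.1). Away from gaps 12.8% at 24 h and 2.52% at 6 h had a control partner. These differences between groups of peaks were not tested, since neighbouring peaks are not independent.

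In the other direction the shares were lower. Of the control members, 61 of 173 overlapped a 24 h peak (35.3%, 28.2 to 42.9; whole list 9.82%) and 22 overlapped a 6 h peak (12.7%, 8.14 to 18.6; whole list 5.02%). Between the treated lists, 23 of 79 24 h members overlapped a 6 h peak (29.1%, 19.4 to 40.4; whole list 17.3%) and 22 of 28 6 h members overlapped a 24 h peak (78.6%, 59.0 to 91.7; whole list 3.77%). Near gaps on the other chromosomes these shares were, in the same order, 16.4%, 3.81%, 15.8% and 30.0%. All counts of overlap take 1 bp as enough.

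Among members, overlap was more frequent the stronger the peak was in its own list. Shares by strength were not computed for peaks outside the windows, so whether the same holds there is unknown. Of control members with a −log10 q under 5, 2 of 41 overlapped a 24 h peak. From 5 to 50, 17 of 75 did, and at 50 or more, 42 of 57 (73.7%, 60.3 to 84.5). At 50 or more, all 38 members of the 24 h list and all 12 of the 6 h list had a control partner. The 15 control members at 50 or more that had no 24 h peak had no 6 h peak either. They were on chromosome 2, with 10 of its 19 such peaks, chromosome 10, with 4 of 18, and chromosome 9, with 1 of 2. On chromosome 16, 0 of 16 lacked a 24 h peak, and 5 of the 16 overlapped a 6 h peak. The chromosome 2 peaks without a 24 h peak had control folds between 2.29 and 4.48 and lay in the main locus beside the gap.

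Joined where they overlapped, the members made 190 regions. Peaks outside the windows were not split in this way, so the counts cannot be set against all peaks. The control alone had 112 of the 190. The control and 24 h had 39 to themselves, and 22 were in all lists, 11 at 24 h only and 6 at 6 h only. None was shared by the control and 6 h alone or by 6 h and 24 h alone, so that every 6 h member with a partner in 1 other list had a partner in both. The regions found in all lists were on chromosome 16 (10), chromosome 10 (9), chromosome 1 (2) and chromosome 2 (1), with 0 on chromosome 9. The 6 found at 6 h only had a median −log10 q of 2.42, the same as the whole 6 h list (2.42). Of these 6, 3 were on chromosome 2.

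Where peaks were shared, most summits lay close together. The pairs were picked for overlap, which in itself limits the distance between summits. Of the 68 overlapping pairs of control and 24 h peaks, 47 had summits within 50 bp, with a median distance of 14 bp. Of the 22 pairs of control and 6 h peaks, 19 did, with a median of 11.5 bp. The pairs on chromosome 10 were the closest of the windows with more than 1 pair, with medians of 7.50 bp against 24 h and 4 bp against 6 h. On chromosome 16 the medians were 36 bp and 22 bp.

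In the 22 regions common to all lists, the pileup relative to the lowest background was of like size in the 3 libraries. The highest of the 3 values exceeded the lowest by a factor of 1.26 in the median region, and by 1.05 to 1.79 over the 22. Across regions the control pileups ran from 50.3 to 7269.7 times. At the chromosome 10 peak from 42596880 the values were 3495 for the control, 3008 for 6 h and 3808 for 24 h. At the chromosome 16 peak from 46403463 they were 440.3, 409.1 and 514.2. The region with the smallest control pileup, on chromosome 16 from 46419417 to 46419841, had 50.3, 58.0 and 63.5. The local background there was 22.4, 34.2 and 31.9 times.

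The folds of the same 22 regions had medians of 2.40 for the control, 1.85 for 6 h and 2.07 for 24 h. Each fold belongs to its own list, and a difference between lists is no measure of a change in the mark. In all 22 the fold printed at 6 h was below that of the control. In all 22 the relative background at 6 h was above that of the control, while the relative pileup was higher at 6 h in 11. The background is solved from the fold, so the counts for fold and background are not separate observations. Shared peaks outside the windows were not compared, so whether the same holds there is unknown. The median relative background of the regions was 198.0 for the control, 269.3 for 6 h and 195.3 for 24 h. With 1 library per condition, a difference between the conditions and one between the libraries cannot be told apart.

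**Figure D5:**
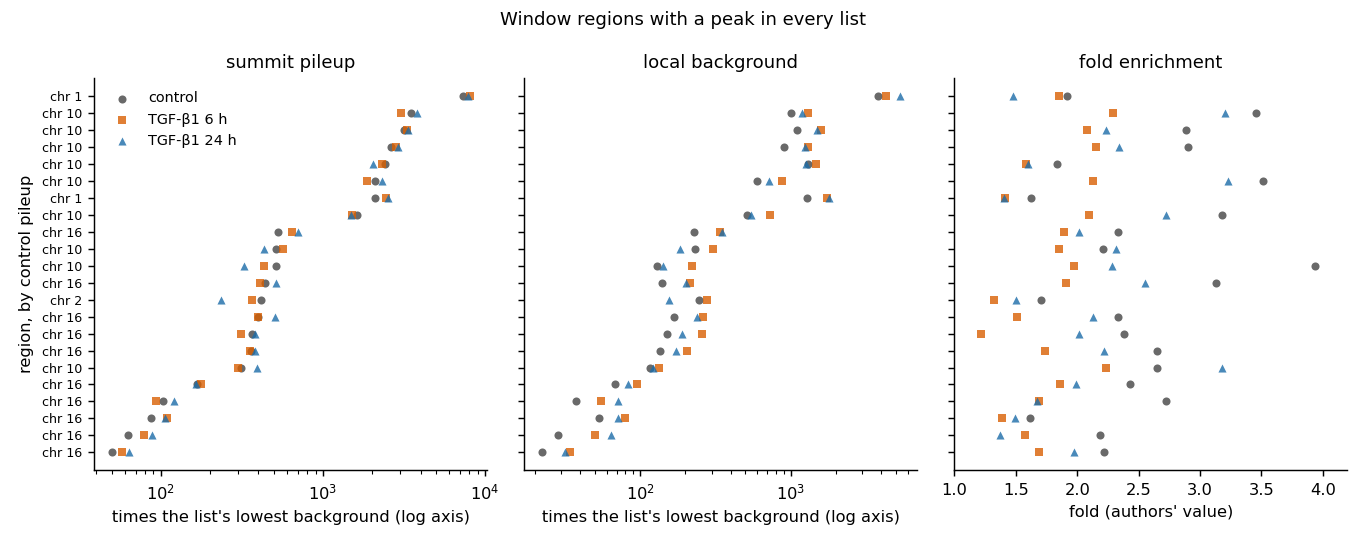
The 22 regions with a peak in every list are shown as rows, ordered by control pileup, with the summit pileup and the local background in multiples of the list's lowest background (logarithmic axes) and the authors' fold (linear axis). Pileups of the 3 lists lie close together in each row, within a factor of 1.79, while the 6 h fold lies left of the control fold in each row.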

How the data were processed

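H3K9me3 ChIP-seq peak lists of 3 libraries were used, 1 each for the control, 6 h and 24 h, called per library and not pooled. The 3 input libraries were not used here. Per the submitters' processing notes, MACS2 2.1.1.20160309, BWA, Trimmomatic and FastQC 0.11.9 were used with hg19 (GRCh37). No source used here gives the threshold of the caller. The deposited columns hold the score (10 times −log10 q, rounded down), the fold (a linear ratio of pileup to local background with 1 added to each), −log10 p and −log10 q. Each list was matched to a library by the library's title, and positions are 1-based on hg19.

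Members, lists and rules were chosen with earlier results of these data known. Gap positions of hg19 came from general knowledge, not from a supplied file. They give the windows of the rule, and smaller gaps were not removed. Pileup and local background were solved from fold and −log10 p under a Poisson model. The solver was tested on 286 peaks simulated under the same model, and 252 of 252 with enough digits were recovered. Backgrounds as high as those of the strongest chromosome 1 peak were not simulated. In the lists, 99.6% (control), 99.9% (6 h) and 97.2% (24 h) of peaks with enough digits gave a whole pileup, within 0.01. Medians of the background in the closing section use those peaks, and values of single peaks and counts past 10 times use all. Intervals are exact 95% binomial intervals, and intervals of medians are from order statistics. Named loci have the most peaks of each window, and named peaks the highest −log10 q or fold of a window and list, or of its regions in all lists. The gene table at hand is on another build, so no gene or sequence was assigned. Python 3.11.15, pandas 2.3.3 and SciPy 1.17.1 were used.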

Additional observations from a re-analysis of the deposited data

How the results depend on the processing

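No paired analysis was possible because every group is a single library. Of the alternatives for these results, 82 left a value within its interval, or moved a count by at most 1.5 times, and 38 moved it by more, and the cause was not tested. For the shares of the lists in the windows (control, 6 h, 24 h), a −log10 q of at least 5 gave 24.0%, 15.7% and 43.3%. With each list cut to as many peaks of highest −log10 q as the shortest has, the control share was 29.8% and that of 6 h 6.62%, so that the control no longer lay below 24 h (29.0%). Within 1 Mb the control share was 10.0%, and within 5 Mb it was 16.2%, with 4.59% at 6 h. With peaks within 1 kb joined it was 10.1% in the control and 22.7% at 24 h. Without the chromosome 16 window, with its peaks kept in the list totals, the shares were 9.67%, 1.39% and 15.1%. Overlap of 6 h members with the control was 100% at a −log10 q of at least 5. Overlap of 24 h members with the control was 62.0% when 50% of both peaks had to be shared, and with 6 h it was 44.3% within 1 kb. Regions at 6 h only numbered 0 at a −log10 q of at least 5. Within 1 kb there were 7 at 24 h only and 21 in the control and 24 h. Without chromosome 16 those numbered 6 and 23, with 12 in all lists. With the weaker peaks left out likewise, the window counts were 18 for chromosome 1 and 2 for chromosome 9 in the control, and 1 for chromosome 2, 0 for chromosome 9 and 5 for chromosome 16 at 6 h. Joining peaks within 1 kb gave 32 on chromosome 2 and 25 on chromosome 16 in the control, 1 on chromosome 1 at 6 h and 18 on chromosome 16 at 24 h. The median control −log10 q was 38.1 at a −log10 q of at least 5. Without chromosome 16 the control's median width was 260 bp (299 bp with it) and its median background 12.4 times the lowest (17.3 with it), and the 24 h medians were a fold of 2.71 and a −log10 q of 114.5. The median background at 6 h was 52.8 times over peaks with a whole pileup and 216.9 times over all solved peaks. No list gives a read total, so the depth behind a missing peak is unknown.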
